A study of Mus musculus with 7 samples.

Results

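The genes described here were 10 effectors of target cell killing: the granzymes Gzma, Gzmb, Gzmc, Gzmd, Gzme, Gzmf and Gzmk, the pore protein gene Prf1, the death ligand gene Fasl and the granule membrane protein gene Nkg7. They were chosen by symbol, and all 10 were among the 32285 genes of the deposited count tables. Their use was followed in CD8 T, CD4 T, Foxp3 T and NK cells of 7 droplet single-cell RNA-seq libraries. Each library came from whole brain tumours of C57BL/6 mice aged 7 to 10 weeks, wild type per the labels, carrying the NSCG-mCherry glioma line, which expresses EGFRvIII and lacks Arf/Ink4a. The label text gives at least 2 pooled mice per library, collected at about day 14, and an aim of 6000 cells per library. UT, with 1 library, was left untreated. The 2 IgG libraries received 10 mg/kg of isotype antibody IgG2b. The 2 BP libraries received B20, which blocks VEGF, at 5 mg/kg together with anti-PD-L1 at 10 mg/kg. BPI, with 1 library, added a daily oral 10 mg/kg of IPI-145, an inhibitor of PI3K, to BP, and CD40, with 1 library, received 100 ug of an agonist antibody to CD40 in each of 2 doses. The labels give 3 rounds of treatment for IgG, BP and BPI. For CD40 the labels say with or without a DC vaccine, so its presence is unknown here, and all groups carried the same tumour line. The question was which lymphocytes carried each killing gene, in which combinations, and how this varied between the treatment groups.

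Cytotoxic lymphocytes store granzymes, which are serine proteases, and perforin in granules that are released onto a target cell. Perforin opens the target membrane so that granzymes reach the cytosol, where granzyme B cleaves caspases. Fas ligand acts by a separate route, through the death receptor Fas on the target. In mice, Gzma and Gzmk lie together in the tryptase locus, while Gzmb, Gzmc, Gzmd, Gzme, Gzmf, Gzmg and Gzmn lie in the chymase locus, which arose by duplication.

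On the GRCm38 assembly with GENCODE M21 models, the chymase locus genes were on the minus strand of chromosome 14: Gzme started the run at chr14:56117626-56120625, followed by Gzmd at chr14:56129556-56132608, Gzmg at chr14:56156582-56159579, Gzmn at chr14:56165797-56174599, Gzmf at chr14:56205263-56211417, Gzmc at chr14:56231441-56234656 and Gzmb at chr14:56258838-56262260. Gzma was at chr13:113093825-113100981 and Gzmk at chr13:113171608-113225908, both on the minus strand. Prf1 was at chr10:61297833-61304680 on the plus strand, Nkg7 at chr7:43437073-43438249 on the plus strand, and Fasl at chr1:161780689-161788495 on the minus strand.

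Whether counts of these copies can be told apart was examined on their sequences. The last 90 coding bases, stop codon included and in exon 5 of 5, are shown because the 3′ tags counted here come from near the transcript end. Capitals mark bases that differ from Gzmd. All are written 5′ to 3′ on the gene's strand from GENCODE M21 transcripts.
Gzmd: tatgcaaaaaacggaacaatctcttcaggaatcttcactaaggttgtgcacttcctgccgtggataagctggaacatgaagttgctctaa
Gzme: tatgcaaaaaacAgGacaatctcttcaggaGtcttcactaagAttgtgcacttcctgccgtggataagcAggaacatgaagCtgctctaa
Gzmg: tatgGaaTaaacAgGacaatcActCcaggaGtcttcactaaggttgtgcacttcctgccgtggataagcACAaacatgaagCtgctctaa
Gzmf: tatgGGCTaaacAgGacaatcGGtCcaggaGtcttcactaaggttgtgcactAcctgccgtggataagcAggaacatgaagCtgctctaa
Gzmc: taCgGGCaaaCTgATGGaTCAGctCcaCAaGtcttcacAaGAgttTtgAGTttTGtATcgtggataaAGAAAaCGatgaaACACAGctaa
Gzmb: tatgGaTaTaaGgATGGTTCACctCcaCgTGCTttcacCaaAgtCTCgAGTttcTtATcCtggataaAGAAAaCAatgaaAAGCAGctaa

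These stretches lay at chr14:56129675-56129764 for Gzmd, chr14:56117726-56117815 for Gzme, chr14:56156689-56156778 for Gzmg, chr14:56205375-56205464 for Gzmf, chr14:56231514-56231603 for Gzmc and chr14:56259419-56259508 for Gzmb. Gzme differed from Gzmd at 6 of the 90 bases, Gzmg at 11, Gzmf at 13, Gzmc at 42 and Gzmb at 44. Over the whole coding sequence Gzmd and Gzme were 94.8% identical, whereas Gzmb and Gzmc shared 76.7%. Within the last 400 bases of the transcripts, no window of 90 bases of any of Gzmb to Gzmg occurred unchanged in another of these genes. Windows of 50 bases did so for 17.9% of positions in Gzmg, 13.1% in Gzmd, 9.97% in Gzme and 9.12% in Gzmf, and for none in Gzmc or Gzmb. The split between these 4 genes is uncertain; Gzmc to Gzmg are also given as a sum, called the copies below.

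The copies were in part detected in the same cells, as given further on, and their upstream sequences are shown for that reason. The 250 bases before the RefSeq start are shown for 3 genes, from RefSeq on GRCm38.p6, minus strand; capitals mark letters matched by any searched motif on either strand.
Gzmb: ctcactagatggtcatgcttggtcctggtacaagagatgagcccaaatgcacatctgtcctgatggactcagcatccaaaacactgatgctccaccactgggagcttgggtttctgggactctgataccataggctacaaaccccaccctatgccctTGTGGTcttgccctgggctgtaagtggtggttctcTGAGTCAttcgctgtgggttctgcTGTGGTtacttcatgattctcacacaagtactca
Gzmc: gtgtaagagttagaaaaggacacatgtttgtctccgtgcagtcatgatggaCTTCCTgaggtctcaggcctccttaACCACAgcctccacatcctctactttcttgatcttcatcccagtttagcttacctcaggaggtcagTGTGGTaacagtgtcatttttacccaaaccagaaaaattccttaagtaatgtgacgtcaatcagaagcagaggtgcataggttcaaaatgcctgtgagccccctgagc
Gzmd: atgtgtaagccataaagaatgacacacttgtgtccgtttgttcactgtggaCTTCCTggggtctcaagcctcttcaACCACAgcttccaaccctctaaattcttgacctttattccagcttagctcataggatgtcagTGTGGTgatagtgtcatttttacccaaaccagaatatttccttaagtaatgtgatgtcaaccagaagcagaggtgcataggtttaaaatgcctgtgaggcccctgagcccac

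The windows were chr14:56262335-56262584 for Gzmb, chr14:56234658-56234907 for Gzmc and chr14:56132594-56132843 for Gzmd, and all 10 genes had an entry in the promoter table. The letters TGTGGT, a core bound by RUNX factors, occurred upstream of Gzmb and each of Gzmc to Gzmg, and in 14.0% of 32851 promoters of the same length. The ETS letters AGGAAG occurred upstream of Gzmc to Gzmg but not Gzmb, and in 29.5% of promoters. The AP-1 letters TGANTCA occurred among these genes upstream of Gzmb only, and in 6.75% of promoters, while the T-box letters AGGTGTGA were upstream of none of them and in 1.12%. None of these motifs is contained in another. The 5 copies were 84.4% to 95.6% identical to each other over these windows and 50% to 59.5% identical to Gzmb.

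Libraries held 68997476 to 186793886 UMIs, and 5373 to 9650 cells were kept in each. Lymphocyte clusters were named by T and NK markers after leaving the killing genes out of the clustering, and cells were then gated by their UMIs. CD8 T cells had CD3 and Cd8a or Cd8b1, CD4 T cells CD3 and Cd4, Foxp3 T cells CD3 and Foxp3, and NK cells an NK receptor without CD3. Ncr1, the NKp46 receptor gene, was in 76.5% of NK cells and 0.7% of CD8 T cells, and Trac in 3.0% of NK cells. Ncr1 is among the NK receptor genes of the gate, so its share in NK cells follows in part from the gating. The cells numbered 1085 CD8 T, 509 CD4 T, 257 Foxp3 T and 901 NK; IgG libraries were the poorest, with 12 and 13 CD8 T cells and 35 and 13 NK cells, against 491 and 115 CD8 T and 349 and 80 NK cells in BP. Free RNA was estimated at 2.51% to 15.8% of the UMIs in T or NK cells, and library pairs shared 0 to 27 barcodes. Levels are given as CPM, the depth-scaled count of a gene after summing the cells of a class in a library, where the class had at least 10 cells. The p-values measure only variation between libraries of pooled mice. For groups this is the spread between libraries, and for classes the spread of the differences within libraries. UT, BPI and CD40 have 1 library each and add no spread, so their p-values borrow it from the IgG and BP pairs.

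Gzma, a tryptase, was above all an NK cell transcript. In NK cells its level was 7399 CPM in UT, 3973 and 5800.1 in IgG, 4994 and 5997 in BP, 6982 in BPI and 5036 in CD40. The CD8 T level was 232 CPM in UT, 0 and 211 in IgG, 235 and 102 in BP, 125 in BPI and 288 in CD40. Every NK value lay above every CD8 T value, and in CD4 T cells the level did not exceed 14.1 CPM. The IgG library at 0 CPM held only 45226 UMIs of CD8 T cells, where a count of 0 allows up to 66.3 CPM. Limits of this kind take 3 counts as the bound for 0 and cover counting error only. Of all Gzma UMIs in kept cells, 72.7% lay in NK cells and 5.55% in CD8 T cells. T cells in none of the 3 T gates held 15.4%, at 315 to 1249 CPM per library, above the CD8 T level in 7 of 7 libraries. Of these cells, 71 of 341 in BP replicate 1 and 24 of 97 in UT lay in the NK-like cluster, and their part in this level was not tested.

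Gzmb, a protease that activates caspases, was shared by NK and CD8 T cells. In CD8 T cells its level was 4155 CPM in UT, 199 and 387 in IgG, 2025 and 1477 in BP, 2051 in BPI and 74.7 in CD40. In NK cells it was 5464 CPM in UT, 1119 and 467 in IgG, 2477 and 1520.4 in BP, 2181 in BPI and 201 in CD40. The libraries fell in a similar order in both classes, with UT highest and CD40 lowest. In Foxp3 T cells the level was 2160.1 CPM in UT, 703 in BP replicate 1, 514 in BPI and 138 in CD40. CD4 T cells had 584 CPM in UT, 41.0 in IgG replicate 2, 109 and 196 in BP, 324 in BPI and 0 in CD40. CD8 T cells held 45.7% of all Gzmb UMIs, NK cells 27.6%, T cells in none of the gates 13.5%, Foxp3 T cells 4.77% and CD4 T cells 2.64%. These shares pool the libraries and so weigh BP replicate 1 most. In CPM, the NK level was above the CD8 T level in every library.

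Gzmk, a tryptase found in memory and exhausted CD8 T cells, was rare. In CD8 T cells it reached 74.7 CPM in CD40 and 21.7 in UT, and was 0 in both IgG libraries, 4.49 and 0 in BP and 2.34 in BPI. CD4 T cells of CD40 had 30.4 CPM, and NK cells had at most 1.48. The series held 94 Gzmk UMIs in all. In CD8 T cells the exact Poisson interval of CD40, 49.2 to 109 CPM, lay above those of BP replicate 1 (2.74 to 6.93) and BPI (0.48 to 6.85). These intervals cover counting error only, and CD40 is 1 library. The exact Poisson intervals of the zeros in IgG reach 81.6 and 65.0 CPM, and Gzmk was not called by edgeR between CD40 and IgG in CD8 T cells.

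Prf1, which encodes perforin, was highest in NK cells, at 828 CPM in UT, 514 and 622 in IgG, 1398 and 785 in BP, 709 in BPI and 686 in CD40. CD8 T cells had 477 CPM in UT, 44.2 and 35.2 in IgG, 229 and 196 in BP, 222 in BPI and 58.1 in CD40. Without the 11 NK cells over 20000 UMIs described below, BP replicate 1 stood at 741 CPM in place of 1398. NK and CD8 T values did not overlap, with or without these cells, and CD4 T and Foxp3 T cells stayed at or below 81.5 CPM. In IgG replicate 2, 50% of all Prf1 UMIs lay outside the lymphocyte clusters.

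Fasl, the ligand of Fas, overlapped between CD8 T and CD4 T cells. In NK cells it was 285 CPM in UT, 194 and 311 in IgG, 194 and 264 in BP, 235 in BPI and 155 in CD40. CD8 T cells had 100.4 CPM in UT, 88.4 and 52.8 in IgG, 132 and 154 in BP, 121 in BPI and 80.2 in CD40. CD4 T cells ranged from 41.0 CPM in IgG replicate 2 to 131 in BP replicate 2. Foxp3 T cells had 29.2 CPM in UT and 28.9 in BP replicate 1, and 0 in BPI and CD40, where 12 cells each allow up to 77.2 and 51.8 CPM.

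Nkg7, a membrane protein of cytotoxic granules, was found in all 4 classes. Its CD8 T level was 2649 CPM in UT, 1061 and 986 in IgG, 1452 and 1831 in BP, 2300 in BPI and 1223 in CD40. NK cells ranged from 1279 CPM in BP replicate 1 to 3359 in UT, overlapping the CD8 T range. CD4 T cells had 1949 CPM in UT and 164 in IgG replicate 2, with the other libraries between these values, and Foxp3 T cells had 1347 in UT and 225 to 592 elsewhere.

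**Figure D1:**
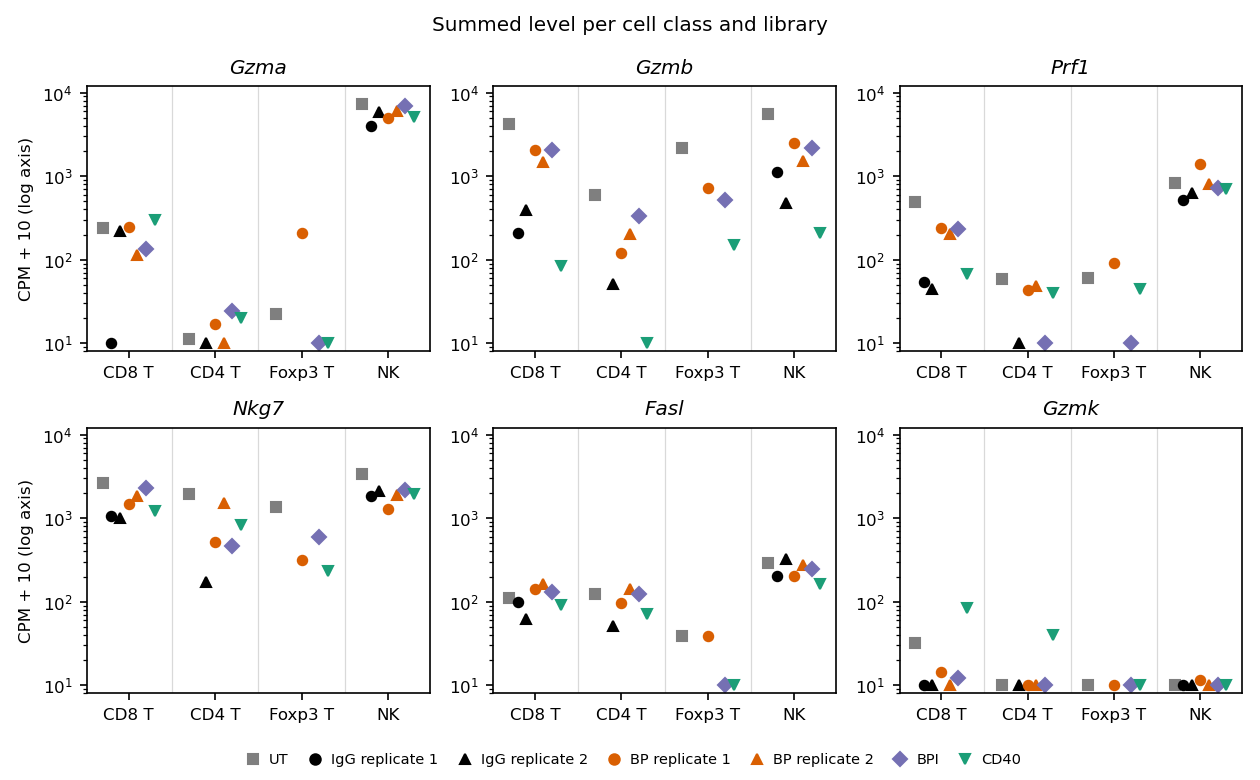
Level of 6 killing genes in each lymphocyte class. The vertical axis is CPM + 10 on a log scale, and each point is a library with at least 10 cells of the class. Gzma and Prf1 points of NK cells lie above all CD8 T points, and Gzmb points spread from UT at the top to CD40 at the bottom in both classes.

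The class contrasts tested these differences within libraries, with edgeR on summed counts, library as a block and Benjamini-Hochberg adjustment over 5013 genes. Gzme and Gzmk did not pass the filter on low counts, so 8 of the 10 genes were tested. Against CD4 T cells, 7 of the 8 were higher in CD8 T cells, where 8.68% of all genes were called and 3.43% were higher. Gzma was higher by a log2 fold change of 5.46 ± 0.62 (SE), Gzmb by 3.17 ± 0.29, Prf1 by 2.95 ± 0.37 and Nkg7 by 1.11 ± 0.23, with edgeR adjusted p of 3.7e-07, 1.1e-08, 1.8e-06 and 0.0015. Gzmc, Gzmd and Gzmf were also called, but with DESeq2 none of these 3 was, and the call count was 4. Most CD8 T UMIs of these 3 lay in BP replicate 1, at 864, 447 and 2452 in that order, against 81, 0 and 15 in UT. Fasl differed by 0.33 ± 0.19, with an edgeR adjusted p of 0.39. The median over the 8 genes, Gzmc, Gzmd and Gzmf included, was 3.06, against 0.02 over all genes tested.

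Against Foxp3 T cells, 6 of the 8 genes were higher in CD8 T cells, where 15.2% of all genes were called and 7.06% were higher. Only UT, BP replicate 1, BPI and CD40 had at least 10 Foxp3 T cells, with 32, 189, 12 and 12. Fasl was higher by a log2 fold change of 2.26 ± 0.28, Prf1 by 2.23 ± 0.39, Nkg7 by 1.89 ± 0.28 and Gzmb by 1.28 ± 0.30, with edgeR adjusted p of 7.2e-07, 0.00013, 1.2e-05 and 0.0027. Gzma, at 1.37 ± 0.46 with an edgeR adjusted p of 0.043, lost its call without UT (0.77, adjusted p 0.35), without BPI (1.35, 0.072) or without CD40 (1.02, 0.14), and stood at 4.59 without BP replicate 1. Gzmf was called at 7.66, with 2452 CD8 T UMIs in BP replicate 1 against 15 in UT. It changed sign to -1.58 when predicted doublets were kept.

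CD4 T and Foxp3 T cells differed from each other in opposite directions for Gzmb and Fasl. The Foxp3 T sums came from the same few libraries, with Fasl at 7 UMIs in UT, 39 in BP replicate 1 and 0 in BPI and CD40. Of the 8 genes, 4 were higher in Foxp3 T cells and 1 lower, where 6.56% of all genes were called, 3.53% higher and 3.03% lower. Gzmb was higher in Foxp3 T cells by a log2 fold change of 1.89 ± 0.33 (edgeR adjusted p 0.00036), while Fasl was lower at -1.93 ± 0.29 (5.6e-05). Gzma was called at 4.09 ± 0.68, but without BP replicate 1 it was 1.45 with an edgeR adjusted p of 0.76. In BP replicate 1, 6 of 189 Foxp3 T cells held all 269 Gzma UMIs of that class, and 200 of them were in 1 cell. Gzmc and Gzmd were called as well, but their direction turned with DESeq2, to -0.090 and -1.48. Gzmc was at -0.14 without cells over 20000 UMIs, and at 1.38 with an edgeR adjusted p of 0.92 without BP replicate 1.

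Compared with NK cells, 6 of the 8 genes were lower in CD8 T cells, where 29.8% of all genes were called and 15.6% were lower. Gzma was lower at a log2 fold change of -5.03 ± 0.33, Prf1 at -2.09 ± 0.25 and Fasl at -0.91 ± 0.16, with edgeR adjusted p of 1e-12, 1.9e-07 and 5.3e-05. Gzmb at -0.43 ± 0.22 and Nkg7 at -0.22 ± 0.21 did not pass, with edgeR adjusted p of 0.16 and 0.46. Gzmc, Gzmd and Gzmf were called lower by edgeR and not by DESeq2, which called 3 of the 8. Without cells over 20000 UMIs, Prf1 was at -1.87 and Gzmc at -1.91, both called by edgeR, while Gzmd and Gzmf did not pass the filter on low counts. In BP replicate 1 the order of these 2 then turned, with Gzmf at 24.1 CPM in NK and 563 in CD8 T cells and Gzmd at 15.4 and 58.6.

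Other parts of the killing machinery were taken from lists of related genes. Of 12 tested genes of granule biogenesis and release, 2 were higher and 2 lower in CD8 T than in CD4 T cells, a contrast in which 8.68% of all genes were called. They included the cathepsin Ctsw at 1.46 ± 0.24 and the cystatin Cst7, an inhibitor of cathepsins, at 1.15 ± 0.21 higher, and the syntaxin Stx11 at -1.43 ± 0.33. Among 4 tested granzyme inhibitors, Serpinb9 and Serpinb6b were lower in CD8 T than in NK cells, by a log2 fold change of -2.20 ± 0.26 and -1.41 ± 0.24. Serpinb9 inhibits granzyme B and protects the killer cell. Of all 5013 genes tested between CD8 T and NK cells, 29.8% were called, 708 higher and 784 lower, and the counts of related genes stand beside that share. Of 7 tested death receptor genes and ligands, 5 were higher in CD8 T than NK cells, among them Cd40lg at 5.70 ± 1.37, Lta at 2.99 ± 0.53 and Tnf at 2.35 ± 0.52.

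Transcription factors of effector cells split in the same contrasts. Eomes, a T-box factor of NK and CD8 T cells, was higher in CD8 T than CD4 T cells by 3.24 ± 0.57 and lower than in NK cells at -2.19 ± 0.30. Zeb2 was lower than in NK cells at -2.07 ± 0.30, and Irf4, induced by antigen receptor signals, was higher at 5.54 ± 0.54. Over the 10 tested factors 3 were higher and 4 lower in CD8 T than in NK cells, where 29.8% of all genes were called. Of 7 cell cycle genes, all 7 were higher in CD8 T than NK cells, with Ube2c at 2.82 ± 0.40 and Mki67 at 2.43 ± 0.36, and 4 of 6 tested exhaustion genes were higher, with Pdcd1, which encodes PD-1, at 4.82 ± 0.40.

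The copies Gzmc to Gzmg came mostly from BP replicate 1 and UT. Summed over cells in the NK gate, they stood at 19474 CPM in BP replicate 1, or 340 CPM without the 11 cells of that library over 20000 UMIs, and at 1812 in UT, at 191 in CD40 and 11.4 in IgG replicate 1, and at 0 in IgG replicate 2, BP replicate 2 and BPI. Over CD8 T cells the sum was 950.4 CPM in BP replicate 1, 189 in UT and 12.5 in BPI, and 0 in the other 4 libraries. The 0 in NK cells of BP replicate 2, from 178243 UMIs in 80 cells, allows up to 16.8 CPM by counting error alone. That limit does not cover how many of the few cells rich in the copies a sample of 80 cells would hold.

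Very few cells held this signal. In BP replicate 1, 39513 UMIs of the copies were in the NK gate, and 508 without the 11 of its 349 cells with over 20000 UMIs each. Of the 349 cells, 9 had at least 1000 UMIs of the copies, with 1033 to 8470 each, which was 3.78% to 15.6% of all UMIs in the cell. These 9 cells had 26605 to 103070 UMIs, whereas the other 340 cells of the gate had a median of 3932. In UT, 640 of 687 UMIs were in 2 NK cells, and all 37 in CD40 were in 1 cell.

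**Figure D2:**
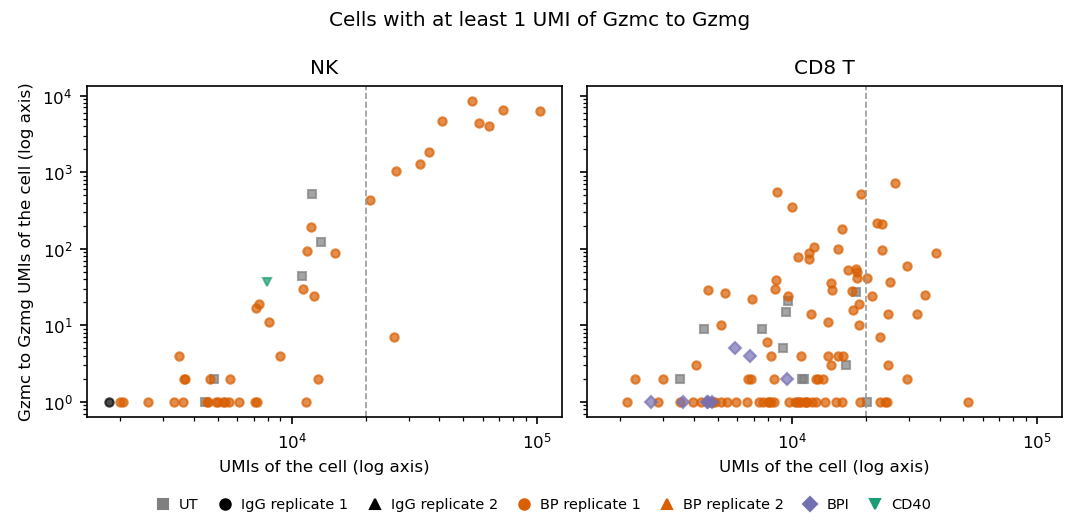
UMIs of Gzmc to Gzmg summed (vertical log axis) against all UMIs (horizontal log axis) in each NK or CD8 T cell with at least 1 such UMI, coloured by library. The dashed line marks 20000 UMIs; the 9 cells of the NK gate with at least 1000 UMIs of the copies lie right of it and all come from BP replicate 1, while most CD8 T cells lie left of it.

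The NK name of these 9 cells rests on the gate, which asked for 1 NK receptor UMI, and on the NK-like cluster. Their receptor levels in CPM went against that name, while their receptor UMIs overlapped those of the other cells. Each had 2 to 33 UMIs of NK receptors (median 11), against 1 to 53 (median 8) in the other 340 cells. Scaled to depth, these summed to 229 CPM in the 9 cells and 2060.3 CPM in the others. Ncr1 was found in 8 of the 9 cells, at 100.2 against 632 CPM, and Klra4 was listed at 0 against 574 CPM. They are therefore called the cells rich in copies. Another such cell, in the same cluster but without an NK receptor UMI and so outside the gate, held 2224 UMIs of the copies among 24703. The 9 cells had no UMI of Cd3d, Cd3e or Cd3g, which the gate required of all its cells. Tumour marker UMIs made up at most 0.0075% of their total. Their 5 to 147 UMIs of macrophage markers were mostly Plac8, which was at 1172 CPM in them and 801 CPM in the other cells of the gate; Lyz2 was at 24.5 and 37.7 CPM. The doublet caller had kept them; the part of doublets or of cell size in the signal was not tested. They also carried Gzmb at 3090.4 CPM, against 2282 in the others, and Prf1 at 3461 against 743, but Gzma at 2217 against 5876. These are levels of the summed cells: 1 cell held 610 of the 1084 Gzma UMIs and 619 of the 1692 Prf1 UMIs. Gzma was found in 7 of the 9 cells.

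In CD8 T cells of BP replicate 1 the copies were spread over more cells, with at least 1 UMI in 96 of 491, but 8 cells with at least 100 UMIs each held 2862 of the 4234 UMIs (67.6%). Unthinned, Gzmc and Gzmf were each in 1.91% of microglia-like cells of that library. Gzmf made up 57.9% of the CD8 T UMIs of the copies. Without cells over 20000 UMIs, Gzmf stood at 563 CPM against 550.4 with them, while Gzmc dropped from 194 to 91.3. The NK gate of the same library, most of whose copies were in the 9 rich cells, had a different mix, with Gzmg at 29.4%, Gzmf at 25% and Gzmd at 20.8%. In UT NK cells, Gzmc made up 55.6% of 687 UMIs. Among the cells of the BP replicate 1 NK gate with Gzmd, unthinned, 92.9% held another copy too and 64.3% held all 5. The shares were 45.2% and 29.0% among those with Gzmc. The cells with all 5 were the 9 rich cells, with 26605 to 103070 UMIs, whereas CD8 T cells of that library had a median of 7263. For CD8 T cells of that library, 58.3% to 83.3% of the cells with a given copy held another, and 4.92% to 25% held all 5. In Foxp3 T cells of that library, 422 of 450 UMIs of the copies were in 1 cell. Of the other relatives, Gzmn reached at most 11.8 CPM and Gzmm at most 22.4 CPM in these lymphocyte classes.

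Shares of cells with a UMI depend on depth, which differed between classes, so each cell was thinned to 1000 UMIs. Gzma was then found in 60% to 84.5% of NK cells per library, and in 0% to 15.1% of CD8 T cells; without thinning the ranges were 68.2% to 92.6% and 0% to 26.4%. The mean over 7 libraries was 75.4% ± 9.69 (SD) in NK and 7.93% ± 5.15 in CD8 T cells. NK cells were higher in 7 of 7 libraries, with an exact paired permutation p of 0.0156, the smallest 7 libraries allow, and 0.179 after adjustment over 40 class comparisons. The background in microglia-like cells was at most 1.42% in a library for Gzma and 1.91% for Gzmb.

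For Gzmb the thinned share in CD8 T cells was 56.4% in UT, 25% and 23.1% in IgG, 56.4% and 49.6% in BP, 65.0% in BPI and 3.77% in CD40. In NK cells it was 82.0% in UT, 51.4% and 38.5% in IgG, 59.0% and 57.5% in BP, 63.9% in BPI and 18.2% in CD40. Without thinning, Gzmb was in 9 of the 53 CD8 T cells of CD40, and in 0 of 907 microglia-like cells of that library. The Nkg7 level of these CD8 T cells was within the range of other libraries. Unthinned, Gzmb was in 17.0% to 84.7% of CD8 T cells per library. CD8 T cells were above CD4 T cells in 6 of 6 libraries, at 42.4% ± 23.7 (SD) against 7.39% ± 6.63, with an exact paired permutation p of 0.0312, the smallest possible, and 0.179 adjusted. Foxp3 T cells had Gzmb in 28.0% of 257 cells.

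Prf1 was in 28.6% to 45.4% of thinned NK cells and 0% to 25.5% of thinned CD8 T cells per library, and unthinned in 54.3% to 73.0% and 15.4% to 57.0%. Both IgG libraries were at 0% of CD8 T cells after thinning, and at 2 of 12 and 2 of 13 cells without it. The background in microglia-like cells was at most 0.539% in a library for Prf1 and 0.658% for Fasl. Fasl was in 13.6% to 23.8% of NK cells and 5.66% to 17.4% of CD8 T cells after thinning.

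**Figure D3:**
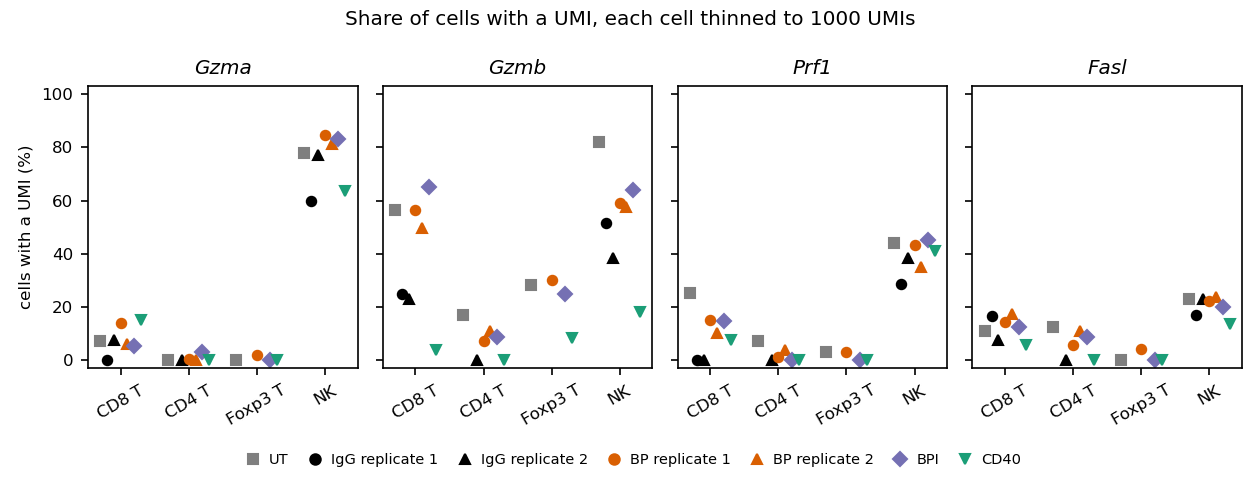
Share of cells with at least 1 UMI of 4 genes after thinning every cell to 1000 UMIs. Each point is a library with at least 10 cells of the class; Gzma spans 60% to 84.5% in NK cells and 0% to 15.1% in CD8 T cells, and Gzmb in CD8 T cells falls to 3.77% in CD40.

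Combinations separated the classes further. After thinning, Gzma, Gzmb and Prf1 occurred together in 260 of 901 NK cells (28.9%), 20 of 1085 CD8 T cells (1.84%), 0 of 509 CD4 T cells and 1 of 257 Foxp3 T cells. At least 3 of the 10 genes were found in 63.5% of NK cells, 22.8% of CD8 T cells, 2.95% of CD4 T cells and 1.95% of Foxp3 T cells. None of the 10 was found in 4.77% of NK, 10.8% of CD8 T, 52.7% of CD4 T and 58.0% of Foxp3 T cells. Unthinned, 85.0% of NK cells and 64.7% of CD8 T cells had at least 3. These shares pool the libraries and so weigh BP replicate 1 most.

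By library, at least 3 genes were found in 32.7% of UT CD8 T cells, 8.33% and 15.4% in IgG, 25.9% and 17.4% in BP, 22.5% in BPI and 1.89% in CD40. Among NK cells the share was 78.0% in UT, 51.4% and 46.2% in IgG, 61.6% and 60% in BP, 67.5% in BPI and 40.9% in CD40. IgG and CD40 were below the other libraries in both classes, and the IgG shares rest on 12 and 13 CD8 T cells.

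Among the sets formed by Gzma, Gzmb, Prf1, Fasl and Nkg7, Gzmb with Nkg7 was the most frequent in CD8 T cells of BPI (37.3%), UT (27.3%) and BP replicate 1 (23.6%). In BP replicate 2 it came after Nkg7 alone, at 24.3% and 32.2%. In CD40, 41.5% of CD8 T cells had Nkg7 alone. NK cells most often combined Gzma, Gzmb, Prf1 and Nkg7 in BPI (20%) and BP (15.8% and 17.5%), whereas in CD40 Gzma, Prf1 and Nkg7 without Gzmb led with 20.5%. Most CD4 T cells held none of the 5 in each library but UT, where 47.7% had Nkg7 alone. In Foxp3 T cells of BP replicate 1, 23.8% had Gzmb alone.

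Among CD8 T cells of UT, BP and BPI, Prf1 was more frequent in cells that also had Gzmb. In UT, 38.7% of Gzmb-positive CD8 T cells had Prf1, against 8.33% of the others. The shares were 19.9% against 9.35% in BP replicate 1, 15.8% against 5.17% in BP replicate 2 and 17.3% against 9.92% in BPI. In NK cells of BP replicate 1 they were 51.9% and 30.8%. Prf1 and Fasl, which mark the separate routes, were together in 3.05% of thinned BP replicate 1 CD8 T cells and in none of the 55 thinned UT cells. Without thinning, 27 of these 55 UT cells had Prf1 and 29 had Fasl, so some held both. Cells are not replicates, and no test was made.

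**Figure D4:**
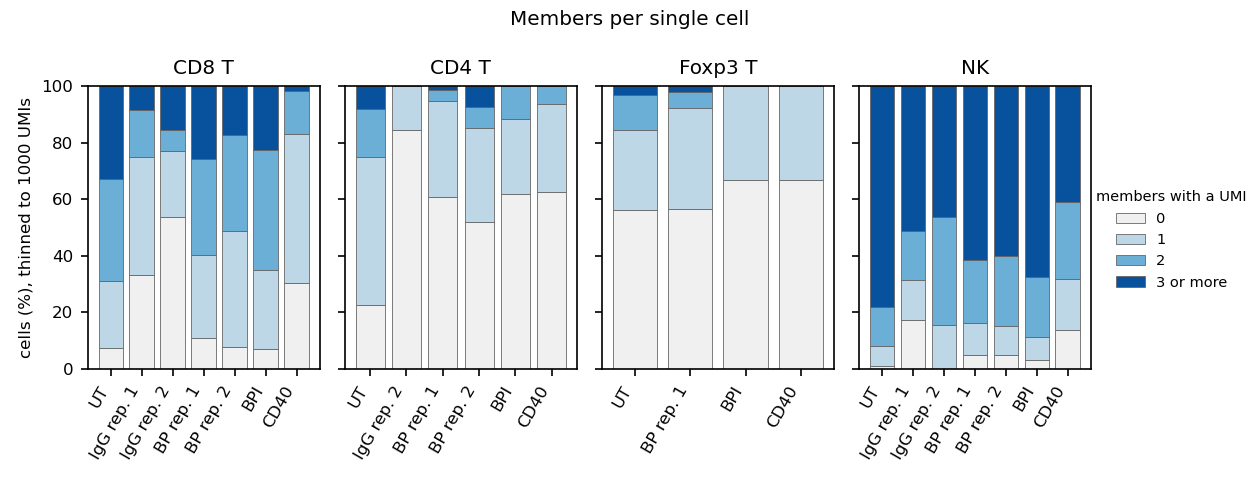
Number of the 10 killing genes with a UMI per cell after thinning to 1000 UMIs, as a share of cells (%) per library and class. Dark segments, at least 3 genes, take 40.9% to 78.0% of NK cells and 1.89% to 32.7% of CD8 T cells.

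The first treatment comparison asked what BP did relative to its isotype control. In CD8 T cells, 3 of 10 genes were higher in BP, where 0.578% of 7090 tested genes were called and 0.494% were higher: Gzmb, Gzmc and Gzmf. Gzmb rose from 293 ± 133 CPM (SD, n = 2) in IgG to 1751 ± 388 (n = 2) in BP, with a log2 fold change of 2.57 ± 0.49 and an edgeR adjusted p of 0.00025. BP and IgG libraries did not overlap. Library names in the labels run in sequence for IgG replicate 1, BP replicate 2 and BPI, and for CD40 and IgG replicate 2; these are called library sets here, and the labels do not say what a name's number stands for. Within the set that held both groups, BP replicate 2 was 7.42 times IgG replicate 1. The IgG values rest on 9 Gzmb UMIs in replicate 1 and 22 in replicate 2. The call did not hold without IgG replicate 1 (2.09) or without IgG replicate 2 (3.10), where IgG is a lone library. With all libraries kept, it was also lost with replicate number as a block and in the crossed pairing, which called none of the 10 genes.

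UT was higher than every BP library for Gzmb in CD8 T cells, so the direction depended on the control. With UT pooled with IgG the log2 fold change was 0.00 with an edgeR adjusted p of 1. UT against IgG gave 3.86 ± 0.59, with an edgeR adjusted p of 4e-08, and 3 of 10 genes higher where 0.805% of all genes were called and 0.524% were higher; Gzmc and Prf1 (3.66 ± 0.75, edgeR adjusted p 0.00051) were the others. The UT library stood alone in its barcode list, so treatment and library cannot be told apart in any comparison that uses UT. Without IgG replicate 1 the Gzmb value was 3.47 and was not called. None of the 3 calls held in every fit that left out a library.

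Prf1 in CD8 T cells was 212.7 ± 23.6 CPM in BP and 39.7 ± 6.37 in IgG (SD, n = 2 each). Each IgG value rests on 2 UMIs, with exact Poisson intervals up to 160 and 127 CPM. The libraries did not overlap, but the log2 fold change of 2.45 ± 0.72 had an edgeR adjusted p of 0.089. Fasl at 1.06 ± 0.67, Nkg7 at 0.72 ± 0.44 and Gzma at 0.58 ± 0.58 did not pass either, with edgeR adjusted p of 0.73, 0.72 and 0.88. The thinned share of Gzmb-positive CD8 T cells was 53.0% ± 4.84 in BP and 24% ± 1.36 in IgG, where the exact permutation p was 0.33, the smallest that 2 against 2 libraries allow. Gzmc and Gzmf were at 0 in IgG and in BP replicate 2, so their calls rest on BP replicate 1. They stood at 550.4 CPM for Gzmf and 194 CPM for Gzmc in BP replicate 1, where 61 of 491 cells had Gzmf and 54 had Gzmc. With 12 and 13 CD8 T cells in IgG, the zeros allow a detected UMI in up to 25% and 23.1% of cells at that depth. The absence of such cells from IgG is therefore not shown.

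**Figure D5:**
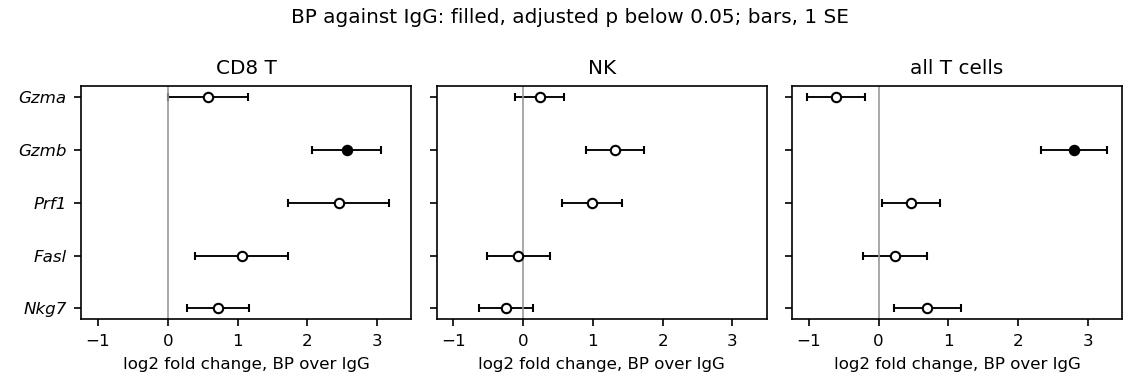
Log2 fold change of BP over IgG, with 1 SE, for Gzma, Gzmb, Prf1, Fasl and Nkg7, in CD8 T cells, NK cells and all T cells. Filled points passed an edgeR adjusted p of 0.05. Gzmc to Gzmf and Gzmk are not drawn. Gzmb is filled in CD8 T cells (2.57) and all T cells (2.80) and open in NK cells (1.31).

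In NK cells, Gzmb was 1999 ± 677 CPM in BP and 793 ± 461 in IgG (SD, n = 2 each), a log2 fold change of 1.31 ± 0.42 with an edgeR adjusted p of 0.32. Within the library set, BP replicate 2 was 1.36 times IgG replicate 1. Gzma at 0.24 ± 0.35, Prf1 at 0.98 ± 0.43, Fasl at -0.07 ± 0.45 and Nkg7 at -0.25 ± 0.39 did not pass, with edgeR adjusted p of 0.79 to 1. Of 9 tested genes 4 were called, Gzmc to Gzmf, where 0.429% of 4891 genes were and 0.327% were higher, and Gzmg was called too. All of them were at 0 in BP replicate 2. Without cells over 20000 UMIs 1 gene was called, Gzmc at 4.34 with an edgeR adjusted p of 0.0059, and without BP replicate 1 Gzmc was at -3.66 with an edgeR adjusted p of 1. Whether the BP change differed between CD8 T and NK cells was tested as an interaction, in which edgeR called none of the 10 genes and 0.183% of all genes; 2 of the 10 had an unadjusted p under 0.05 and DESeq2 called 1.

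In all T cells together, 1 of 10 genes was higher in BP, where 0.0745% of 9391 genes were called and 0.0532% were higher. This was Gzmb, at 1104 ± 145 CPM in BP and 145 ± 48.7 in IgG (SD, n = 2 each), a log2 fold change of 2.80 ± 0.47 with an edgeR adjusted p of 0.0092. Without IgG replicate 1 it was 3.08 with an edgeR adjusted p of 0.064, and without IgG replicate 2 it was 2.53 with 0.50; with UT pooled with IgG it was 0.43. Keeping predicted doublets also ended the call, at 3.22 with an edgeR adjusted p of 0.080. A sum over all T cells cannot tell more Gzmb-bearing cells from more Gzmb per cell. CD4 T and Foxp3 T cells alone were not compared between BP and IgG, since an IgG library held fewer than 10 of them.

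Related genes were called in the same CD8 T contrast, where 0.578% of all genes were. Of 7 exhaustion genes 3 were higher in BP, with Pdcd1 at 3.89 ± 1.05 and Ctla4 at 3.41 ± 0.84, and Havcr2 called as well. Both Serpinb9 and Serpinb6b, of 4 tested granzyme inhibitors, were higher, the latter by 4.16 ± 1.0. Ifng, of 5 cytokine and chemokine genes, was higher by 2.35 ± 0.58. Klf2, from the list of naive or memory genes, was lower at -2.15 ± 0.50. The median over all genes in this contrast was 0.30. Over all genes 35 were called higher, but 3 without IgG replicate 1 and 4 without IgG replicate 2. In NK cells 3 of 5 cytokine and chemokine genes were lower in BP, where 0.429% of 4891 genes were called and 5 were lower: Xcl1 at -2.17 ± 0.46, Ccl3 at -1.84 ± 0.48 and Ccl4 at -1.80 ± 0.44. These 3 calls were lost without IgG replicate 1, without IgG replicate 2 and in the edgeR fit of IgG and BP libraries alone, which called 0 genes each and had 301, 153 and 135 at an unadjusted p under 0.05, and with DESeq2, which called 0 genes lower.

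Adding IPI-145 to BP, in the BPI library, gave Gzmb values near those of BP. Against IgG, 1 of 10 genes, Gzmb, was higher in CD8 T cells, by a log2 fold change of 2.97 ± 0.55 with an edgeR adjusted p of 3.8e-05, where 0.621% of all genes were called and 0.564% were higher. It was also the 1 gene of 10 called in all T cells, by 3.69 ± 0.53 with an edgeR adjusted p of 0.0012, where 0.117% were called and 0.0958% were higher. With UT pooled with IgG these values were 0.45 and 1.30, and neither was called. The CD8 T call was also lost without IgG replicate 1 (2.498, edgeR adjusted p 0.48) or IgG replicate 2 (3.503, 0.16), and the call in all T cells without IgG replicate 2 (3.42, 0.33). Over all genes, 44 were called in CD8 T cells, 7 without IgG replicate 1 and 8 without IgG replicate 2. Within the library set, BPI was 10.3 times IgG replicate 1 in CD8 T cells, where that library had 9 Gzmb UMIs, and 1.39 times BP replicate 2. In NK cells edgeR called no gene (0%) and 162 had an unadjusted p under 0.05, 1 of the tested killing genes among them. DESeq2 called 0 too, but edgeR called some genes without BP replicate 1.

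Gzmb did not pass between BPI and BP, at 0.41 ± 0.51 in CD8 T and 0.27 ± 0.48 in NK cells, both with an edgeR adjusted p of 1. The genes called lower in BPI were copies: 3 of 10 in CD8 T cells, where 0.141% of all genes were called and 0.0846% were lower, and 4 of 9 in NK cells, where 0.307% were called and 0.286% were lower. They rest on BP replicate 1 as above, and DESeq2 called none in CD8 T cells. In all T cells edgeR and DESeq2 called no gene (0%), 185 genes had an unadjusted edgeR p under 0.05, and 3 of the 10 had an unadjusted edgeR p under 0.05. Some genes were called there by edgeR without BP replicate 2, where BP is a lone library. CD8 T cells of BPI had more Ccl3 (5.21 ± 0.81), Ifng (4.70 ± 0.62) and Ccl4 (3.90 ± 0.59) than those of IgG, and these 3 were also higher than in BP, by 2.66 ± 0.49, 2.35 ± 0.50 and 2.22 ± 0.50 for Ccl3, Ifng and Ccl4. The 3 calls against BP were lost with DESeq2 and with predicted doublets kept, which called 0 genes each and had 28 and 158 at an unadjusted p under 0.05, against 10 called in edgeR. Ifng encodes interferon gamma, and Ccl3 and Ccl4 are chemokines.

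The CD40 library was the lowest for Gzmb, yet no single killing gene passed against IgG. In CD8 T cells 0.0987% of all genes were called and none of the 10, in NK cells 0.307% and none of 9, and in all T cells 0% and none of 10. Without BP replicate 1, some genes were called in all T cells, but still none of the 10. Gzmb was at -1.86 ± 0.65 in CD8 T and -1.97 ± 0.57 in NK cells, with edgeR adjusted p of 0.50 and 0.14; the NK value was called without BP replicate 1 (-1.99, edgeR adjusted p 0.0049) or BP replicate 2 (-2.02, 0.0022). The copies summed were called higher in NK cells, by 4.67 ± 0.88 with an edgeR adjusted p of 0.00018, but all 37 UMIs in CD40 were in 1 cell. Gzmc alone was called higher with no filter on low counts (4.78, edgeR adjusted p 0.00087), at 2000 UMIs per cell (9.51, 0.034), without cells over 20000 UMIs (4.66, 0.0051) and without BP replicate 2 (4.66, 0.0012). Within its library set, CD40 was 0.193 times IgG replicate 2 in CD8 T and 0.431 times in NK cells, from 27 and 22, and 39 and 21 UMIs. At an unadjusted p under 0.05, 3, 2 and 2 of these genes passed in the 3 cell sets, and DESeq2 called none.

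UT against IgG in NK cells called 3 of 9 genes, Gzmb by 2.83 ± 0.47 with an edgeR adjusted p of 5.3e-05, Gzmc and Gzmf, where 0.661% of all genes were called and 0.292% were higher. The Gzmf UMIs of UT were in 1 of its 100 NK cells and the Gzmc UMIs in 4, so these calls rest on few cells of 1 library. Over all genes, 34 were called, 1 without IgG replicate 1 and 0 without IgG replicate 2, where 356 had an unadjusted edgeR p under 0.05. Without IgG replicate 1 Gzmb was 3.77 with an edgeR adjusted p of 0.44, and without IgG replicate 2 it was 2.31 with 0.82. In all T cells Gzmb was the 1 gene of 10 called, by 3.75 ± 0.54 with an edgeR adjusted p of 0.00065, where 0.723% were called and 0.45% were higher; without IgG replicate 2 it was 3.47 with 0.072. Exhaustion genes were higher in UT CD8 T cells than in IgG for 4 of 7, with Pdcd1 at 5.48 ± 0.97 and Lag3 at 5.17 ± 1.02, where 0.805% of all genes were called and 0.524% were higher. That contrast called 60 genes in all, 28 without IgG replicate 1, 18 without IgG replicate 2 and 26 without CD40. In NK and all T cells too, treatment and library cannot be told apart for UT, which stood alone in its barcode list. The contrasts of UT, BP, BPI and CD40 with IgG share the IgG libraries.

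Within CD8 T cells, the share with Gzmb after thinning was set side by side in cells with and without a UMI of an exhaustion gene. The shares were 57.8% and 54.5% in BP replicate 1, and 66.0% and 64.1% in BPI. Within a thinned cell the detected transcripts compete for the same UMIs, and no test was made.

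Across 24 sums of a class in a library, the genes whose CPM followed Gzma most closely were Nedd4, Lamb3 and Cd244a, with Spearman correlations of 0.91, 0.91 and 0.89 among 3341 genes. Those for Prf1 were Cd244a (0.95), Setbp1 (0.93) and Arsb (0.92), and those for Gzmb Vdac3 (0.83), Reep5 (0.81) and Irf8 (0.78). The sums share libraries and classes, so these are descriptions. For Gzmk the highest was 0.70, for B4galnt1, but Gzmk was at 0 in most of these sums and its mean was 5.63 CPM.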

How the data were processed

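The values deposited by the authors are UMI counts for each gene in each barcode, aligned to mouse build mm10, and were used as they stood. Per the file headers the version was Cell Ranger 4, whereas the submitters' processing notes name 7.0.1. A cell had to reach 1000 UMIs and 500 genes with no more than 15% of its UMIs mitochondrial, and predicted doublets (4.50% to 8.44% of cells) were removed, with a T-like cluster of 369 cells of which 91.1% were predicted doublets. Cells were clustered with scanpy 1.11.5 under Python 3.11.15, leaving out the genes described and Gzmg, Gzmn and Gzmm.

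Within T-like and NK-like clusters, classes were gated by at least 1 UMI: CD3 genes with Cd8a or Cd8b1, with Cd4 or with Foxp3 and without the other lineage genes, or an NK receptor gene with none of these. Sums over each class of each library entered edgeR 4.0.16 (quasi-likelihood, TMM, Benjamini-Hochberg) under R 4.3.3: classes with library as a block, groups with all libraries in a shared fit, UT added where compared. DESeq2 1.42.0 was an alternative. The count test was tried on simulated data, where 4-fold changes between BP and IgG were recovered for 54.5% of 200 changed genes in CD8 T cells and 64% in NK cells, and 2-fold changes for 0%. Sequences were compared with biopython 1.88. Each cell was thinned to 1000 UMIs for shares.

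The 10 genes, Gzmg, Gzmn and Gzmm are named whatever their values, with up to 3 called genes per related list and contrast by largest absolute log2 fold change, and the 3 genes most correlated with each of Gzma, Gzmb, Gzmk and Prf1. A gene that this rule also names, and the counts of its list, are not reported here. The genes, lists and tests were chosen with earlier results of these data known. The CD8 T contrasts of UT, BPI and CD40 and the removal of cells over 20000 UMIs were added after seeing the data.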

Additional observations from a re-analysis of the deposited data

How the results depend on the processing

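IgG libraries held 12 and 13 CD8 T cells, 35 and 13 NK cells and 44 and 60 T cells in all, which limits the contrasts with IgG in each; a class needed at least 10 cells in a library. Contrasts between groups within CD4 T or Foxp3 T cells, those in CD8 T and NK cells at 20 cells per library and those in CD8 T cells at 2000 UMIs per cell were not run, since a library fell under the minimum of cells; for NK cells the fit without IgG replicate 2 holds the libraries with at least 20. Leaving out a group's lone library leaves no contrast. Of 2733 alternative values for single genes, 2526 kept their direction and side of the threshold, 112 lost and 85 gained a call, and 10 reversed. For shares of cells 368 of 400 kept both. Same-numbered BP and IgG replicates did not deviate together (correlations -0.078 in T, -0.115 in NK and -0.006 in CD8 T cells), so the numbers were not treated as pairs.

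Counts of killing genes called changed as follows. With DESeq2 they were 4 in CD8 T against CD4 T (7 in edgeR), 3 in CD8 T against NK (6), 2 in Foxp3 T against CD4 T (5), 1 for BP against IgG in CD8 T (3), 0 for BPI against BP in CD8 T (3) and 1 in the interaction (0). Without the library block they were 2, 2 and 2 for CD8 T against CD4 T, CD8 T against Foxp3 T (6) and Foxp3 T against CD4 T. For BP against IgG, the replicate block gave 0 in CD8 T and 0 in NK (4), the crossed pairing, added after seeing the data, 0 and 0, and only IgG and BP libraries 1 and 0. UT pooled with IgG gave 1 for BP in NK, 0 for BP in T (1), 0 for BPI in CD8 T (1) and 0 for BPI in T (1). Keeping doublets gave 1 for BP in CD8 T, 2 in NK and 0 in T, 0 for BPI against BP in CD8 T and 0 in NK (4), and 1 for UT in NK (3). Summing the copies gave 1 for BP in NK, 1 and 1 for BPI against BP in CD8 T and NK, 3 for Foxp3 T against CD4 T and 1 for CD40 in NK (0). Leaving out cells over 20000 UMIs gave 1 for BP in NK, 2 in T, 1 for BPI against BP in CD8 T, 1 in NK and 1 in T (0), and 1 for CD40 in NK. The looser gate gave 3 for BP in T, 1 for BPI against BP in CD8 T, 2 in T, 3 for BPI in T and 2 for UT in T (1). No filter on low counts gave 4 for BP in T, 3 for BPI against BP in T, 2 for BPI in CD8 T, 2 in T, 1 for CD40 in NK and 2 for UT in T. The T-like cluster alone gave 3 for BP in T, 2 for BPI against BP in T, 3 for BPI in T and 2 for UT in T, and a minimum of 2000 UMIs gave 1 for CD40 in NK.

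Leaving out each library in turn gave 5 to 7 for CD8 T against CD4 T, 4 to 6 against Foxp3 T, 4 to 7 against NK and 2 to 6 for Foxp3 T against CD4 T. BP against IgG ranged 0 to 3 in CD8 T, 0 to 6 in NK and 1 to 5 in T, BPI against BP 0 to 4 in each, BPI against IgG 0 to 3, 0 to 1 and 0 to 3, CD40 0 to 1, 0 to 2 and 0 to 0, UT 0 to 4, 0 to 4 and 0 to 3, and the interaction 0 to 2. Counts of all genes called ranged from 0 to 97 for BP in CD8 T (41), 0 to 76 in NK (21), 0 to 245 in T (7), 81 to 845 for CD8 T against CD4 T (435) and 607 to 2218 against NK (1492).

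Log2 fold changes that reversed were those of copies: for CD8 T minus CD4 T, Gzmd at -1.51 with DESeq2. For CD8 T minus Foxp3 T they were Gzmd at -2.72 and Gzmf at -1.58 with doublets kept. For Foxp3 T minus CD4 T they were Gzmc at -0.090 and Gzmd at -1.48 with DESeq2, Gzmc at -0.14 without cells over 20000 UMIs and Gzmf at 7.91 with doublets kept. For BP minus IgG, Gzmc was at -0.011 in CD8 T with UT pooled and -3.66 in NK without BP replicate 1, and for BPI minus BP in NK it ranged from -13.72 to 0.00 when libraries were left out in turn, the latter without BP replicate 1. The cause was not tested.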

Other observations

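The 9 cells in the NK gate of BP replicate 1 with at least 1000 UMIs of Gzmc to Gzmg differed from the other 340 in further genes. Those named here are some of the 10 highest and 10 lowest by size of difference. They were picked after their values were seen, with no test. Spp1, which encodes osteopontin, was at 12593 CPM in them and 57.8 in the others and was found in 9 of 9 cells. The metallothionein genes Mt1 and Mt2 were at 6304 against 53.9 and 1841 against 21.4 CPM. Ifitm1 was at 3833 against 173 CPM, Il2ra, the interleukin 2 receptor alpha chain gene, at 849 against 36.4, and the protease gene Ctsg at 677 CPM against a listing of 0. Lower in these cells were the chemokine gene Ccl5, at 6.14 against 5772 CPM, and Satb1, at 36.8 against 1447.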
